A study of Mus musculus with 6 samples.

Results

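The sites described here are FOXC2 peaks of mouse podocytes that lay in exons or at the ends of transcripts. A peak was taken as a transcript end site when its summit, the base of highest enrichment, lay from 100 bp upstream to 1000 bp downstream of the end of any GENCODE M21 transcript (GRCm38), and as an exon site when it lay elsewhere in an exon. Summits in a promoter, from 1000 bp upstream to 100 bp downstream of any transcript start, were left out. In the ADR list 3579 of 40067 peaks met the rule (1781 exon sites and 1798 transcript end sites), and in the PBS list 3708 of 41075 did (1938 exon sites and 1770 transcript end sites).

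The peaks came from ChIP-seq of FOXC2 in podocytes sorted from mT/mG reporter mice, males of mixed background in which Cre driven by a podocyte-specific promoter switches on a green fluorescent label. The ADR mice received adriamycin at 18 mg/kg on days 0 and 7, a model of podocyte injury, and their podocytes were collected on day 9. The PBS mice were littermates injected with phosphate-buffered saline on the same days. The 3 samples of each condition had been pooled before peaks were called, so there was 1 list per condition and no spread between animals could be measured. Intervals, where given, are therefore 95% Wilson intervals for shares, 95% normal intervals for differences of shares and 95% order-statistic intervals for medians. All of them cover counting error only, and no test between conditions was possible. Intervals for ADR minus PBS differences over all sites of a class treat the lists as independent. Sites in both lists enter each side, so these intervals are approximate. The height of a peak is given as the deposited fold enrichment, the signal at the summit over the caller's background. Expression was not measured in these files, so the identity of the sorted cells could not be checked from transcripts.

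FOXC2 is a forkhead transcription factor, a family that binds short AT-rich sequences through a winged-helix domain, and mouse podocytes that lack it fail to form normal foot processes. WT1, a zinc finger factor that binds GC-rich sequence, is the other master regulator of these cells, and AP-1 is the dimer of FOS and JUN proteins that stimuli of many kinds induce. Exons are GC-rich by comparison with introns, 5′ UTRs most of all, and the DNA just past a gene can hold enhancers as well as signals for transcript cleavage.

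Sequences of the sites that the results turn on are given first, each 5′ to 3′ on the strand of its gene (GRCm38). Some windows were shifted to show a match. Those of Tmem167, Il6ra and Ildr2 do not reach their summits, which lay at chr13:90106302, chr3:89865625 and chr1:166313841. The first set is taken from a group of immunoglobulin kappa variable (V) gene ends with high ADR folds, and each window starts 30 bases before the end of the V gene record. Capitals mark exact matches to CACAGTG and to ACACAAACC. Igkv6-17 (chr6:70371964-70372043, + strand), Igkv8-18 (chr6:70356416-70356495, + strand) and Igkv12-41 (chr6:69858370-69858449, - strand) had a peak in the ADR list only, whereas Igkv6-32 (chr6:70073974-70074053, - strand), Igkv8-26 (chr6:70193768-70193847, + strand) and Igkv8-30 (chr6:70117011-70117090, - strand) had a peak in both lists.
Igkv6-17: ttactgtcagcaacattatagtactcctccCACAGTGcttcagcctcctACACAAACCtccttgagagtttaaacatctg
Igkv8-18: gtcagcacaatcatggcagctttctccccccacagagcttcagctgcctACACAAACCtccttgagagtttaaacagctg
Igkv12-41: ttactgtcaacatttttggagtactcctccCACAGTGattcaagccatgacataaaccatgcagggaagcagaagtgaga
Igkv6-32: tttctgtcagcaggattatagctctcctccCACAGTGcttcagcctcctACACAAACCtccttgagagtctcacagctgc
Igkv8-26: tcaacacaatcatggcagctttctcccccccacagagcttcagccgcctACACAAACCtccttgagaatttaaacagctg
Igkv8-30: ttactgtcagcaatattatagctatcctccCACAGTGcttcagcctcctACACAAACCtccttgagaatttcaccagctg

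The second set shows sites with a WT1 match (GNGKGGGMG, where K is G or T and M is A or C), the most frequent of the motifs searched. Mllt6 (chr11:97669453-97669513, + strand, coding exon 7 of 20) and Nav2 (chr7:49438062-49438122, + strand, past a transcript end) were among the strongest ADR sites, and Arhgap24 (chr5:102845261-102845289, + strand, 5′ UTR) was among the strong sites of podocyte genes. Capitals mark the match, on either strand.
Mllt6: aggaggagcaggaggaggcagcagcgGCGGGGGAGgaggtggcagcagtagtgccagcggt
Nav2: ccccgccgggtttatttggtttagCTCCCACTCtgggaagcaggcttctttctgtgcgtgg
Arhgap24: ggagcagGAGGGGGAGgagagctccctgc

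The third set shows sites with a forkhead match (RYAAAYA, where R is A or G and Y is C or T) that were in the ADR list only (Lamc1, Actn4 and Tmem167) or higher in it (Dpp4, Sdc4 and Il6ra). Capitals mark forkhead matches, the WT1 matches of Lamc1 (GCGTGGGAG) and Dpp4 (GTGGGGGAG), and an overlapping pair of LMX1B matches (TTAATTA and TAATTAA) at Sdc4. The positions are chr1:153228029-153228109 for Lamc1, chr7:28918717-28918797 for Actn4, chr2:62407386-62407466 for Dpp4, chr2:164423651-164423711 for Sdc4 and chr3:89865591-89865619 for Il6ra, all on the - strand, and chr13:90106233-90106261 for Tmem167 on the + strand.
Lamc1: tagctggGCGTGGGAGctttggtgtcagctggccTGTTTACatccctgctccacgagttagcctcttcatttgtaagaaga
Actn4: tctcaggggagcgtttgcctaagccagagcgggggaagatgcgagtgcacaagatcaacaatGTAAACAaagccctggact
Tmem167: atttttggtgtACAAACActgactcctgt
Dpp4: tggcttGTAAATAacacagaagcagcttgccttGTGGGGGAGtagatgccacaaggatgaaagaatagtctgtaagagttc
Sdc4: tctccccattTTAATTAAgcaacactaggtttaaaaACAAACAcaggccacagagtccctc
Il6ra: aaatatgttcattattatACAAACAagcc

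The last set shows PBS-only sites with an AP-1 match (TGASTCA, where S is C or G), in capitals. The strongest PBS-only transcript end site lay at Manba (chr3:135542481-135542541, + strand), a further one lay at another transcript end of the same gene (chr3:135556165-135556225, + strand), and a 3′ UTR site of the podocyte gene Ildr2 held a pair of matches (chr1:166313797-166313825, + strand).
Manba, first site: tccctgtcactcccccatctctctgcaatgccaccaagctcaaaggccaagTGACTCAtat
Manba, other site: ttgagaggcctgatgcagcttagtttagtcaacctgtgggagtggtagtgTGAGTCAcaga
Ildr2: gtctgTGACTCAcagcTGAGTCAgggaca

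Exon sites were 4.45% of the ADR list (95% interval 4.25% to 4.65%) and 4.72% of the PBS list (4.52% to 4.93%). The exon class covers 3.09% of the genome, so its share of peaks was 1.44 times its share of bases in the ADR list and 1.53 times in the PBS list. Transcript end sites were 4.49% of the ADR list (4.29% to 4.69%) and 4.31% of the PBS list (4.12% to 4.51%), against 3.73% of the genome, which is 1.20 times the share of bases in the ADR list and 1.16 times in the PBS list. Promoters, for comparison, held 8.23 times their share of bases in the ADR list and 8.87 times in the PBS list. Exon sites thus exceeded their share of bases by more than transcript end sites did, and both by far less than promoters.

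The exon sites were spread over the parts of the transcript. In the ADR list 269 lay in 5′ UTRs, 530 in coding sequence, 330 in 3′ UTRs, 291 in exons of noncoding transcripts of protein-coding genes and 361 in exons of other genes. In the PBS list the same parts held 306, 594, 302, 305 and 431 sites. They fell on 1612 genes in the ADR list and 1741 genes in the PBS list, and 1464 and 1580 of these genes carried a single exon site. Many exon sites lay just beyond a promoter window: 737 of the ADR exon sites (41.4%) and 859 of the PBS exon sites (44.3%) were within 1000 bp of a transcript start.

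Transcript end sites divided almost equally between the end of the gene record (896 ADR sites and 873 PBS sites) and the end of a shorter transcript inside the gene (902 ADR sites and 897 PBS sites). Since many transcripts end inside other genes or introns, 557 of the ADR transcript end sites also lay in an exon, 752 lay in an intron and 489 lay outside any transcript, against 583, 727 and 460 of the PBS sites. Along the window there was no crowding at the end itself. In the ADR list 153 summits lay in the 100 bp before the end, and each 100 bp past it held between 126 and 212. The PBS list had 139 summits in the 100 bp before the end and between 124 and 204 in each 100 bp past it. Both lists were fullest from 100 to 199 bp past the end.

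The question that the pair of lists addresses is where FOXC2 binding differs after injury. Of all peaks, 32.3% of the ADR list overlapped no PBS peak and 33.1% of the PBS list overlapped no ADR peak, and the sites are read against these shares. Transcript end sites were more often without a counterpart than all peaks together: 713 ADR sites (39.7%, 37.4% to 41.9%) and 672 PBS sites (38.0%, 35.7% to 40.3%). In the ADR list this was 7.63 points above the pooled promoter, intron and intergenic peaks (interval 5.32 to 9.94), and in the PBS list 5.24 points above them (2.93 to 7.55). These classes differed widely. The ADR and PBS shares were 10.5% and 18.2% in promoters, 43.3% and 39.0% in introns, and 40.5% and 43.5% at intergenic sites. Transcript end sites thus lay above promoters but not above intron or intergenic peaks. The shares of the 2 conditions differed by less than the counting error at transcript ends (ADR minus PBS 1.69 points, -1.51 to 4.89).

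At exon sites, 557 ADR sites (31.3%, 29.2% to 33.5%) and 695 PBS sites (35.9%, 33.8% to 38.0%) were found in 1 list only, a difference of -4.59 points (-7.62 to -1.55). The ADR share was close to that of other ADR peaks (-0.75 points, -2.96 to 1.46), whereas the PBS share was 3.13 points above that of other PBS peaks (0.94 to 5.32). The order of the conditions varied with the threshold set on peaks. With both lists limited to peaks of a fold of at least 5, the ADR share was 39.0% and the PBS share 33.9%. That limit left 1334 ADR and 1261 PBS exon sites. With a -log10 q-value of at least 5 the shares were 34.6% in ADR and 34.0% in PBS. Among the 20000 peaks of smallest q-value in each list they were 36.7% and 37.3%, in the order of the full lists.

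The 5′ UTR stood apart from the rest of the exon. Only 30 of the 269 ADR 5′ UTR sites lacked a PBS peak (11.2%, 7.92% to 15.5%), against 72 of the 306 PBS 5′ UTR sites that lacked an ADR peak (23.5%, 19.1% to 28.6%), a difference of -12.4 points (-18.4 to -6.32). In coding sequence 34.2% of ADR sites (30.2% to 38.3%) and 38.2% of PBS sites (34.4% to 42.2%) were in 1 list only. In 3′ UTRs the ADR share was 42.4% (37.2% to 47.8%) and the PBS share 36.4% (31.2% to 42.0%), a difference of 6.0 points that its interval does not separate from 0 (-1.61 to 13.6). ADR 5′ UTR sites were less often in 1 list only than ADR 3′ UTR sites by 31.3 points (interval of the 5′ minus 3′ difference -37.8 to -24.7). Promoters, which adjoin 5′ UTRs, gave 10.5% in the ADR list and 18.2% in the PBS list.

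**Figure D1:**
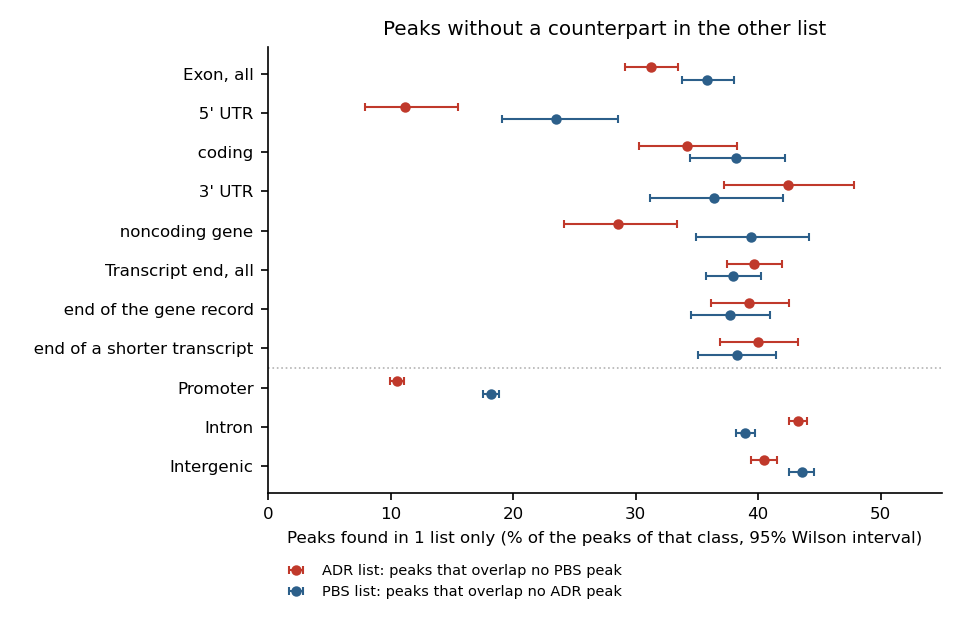
Share of peaks without a counterpart in the other list (horizontal axis, percent), for ADR peaks (red, upper point of each pair) and PBS peaks (blue) of each exon part, transcript end kind and other class; bars are 95% Wilson intervals. The 5′ UTR points, 11.2% for ADR and 23.5% for PBS, lie near the promoter points, and the 3′ UTR and transcript end points lie between 36% and 43%.

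The distance from a transcript start ordered the ADR exon sites in the same way. Within 1000 bp of a start 21.9% of ADR exon sites (19.01% to 24.97%) and 30.9% of PBS exon sites (27.8% to 34.0%) were in 1 list only, and beyond 5 kb 44.6% of ADR exon sites (40.2% to 49.1%) and 40.9% of PBS exon sites (36.4% to 45.5%) were. Exons of genes that code for no protein gave 28.5% in the ADR list (24.1% to 33.4%) and 39.4% in the PBS list (34.9% to 44.1%). For lincRNA exons the counts were 27 of 135 ADR sites and 66 of 180 PBS sites.

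The heights of the peaks differed little between conditions. Exon sites had a median fold of 6.78 in the ADR list and 5.85 in the PBS list, and transcript end sites 7.20 and 6.14, below the 7.42 of all ADR peaks and 6.53 of all PBS peaks for both classes. Over the 1224 ADR exon sites with a PBS peak, the median log2 ratio of the ADR fold to the PBS fold was 0.03 (-0.02 to 0.07), and over the 1085 transcript end sites it was 0.09 (0.03 to 0.16), against 0.04 for all ADR peaks with a PBS peak. At least a 2-fold higher ADR fold was found at 137 exon sites (11.2%) and 176 transcript end sites (16.2%), against 12.8% of all ADR peaks with a PBS peak. At least a 2-fold higher PBS fold was found at 97 exon sites (7.92%) and 88 transcript end sites (8.11%), against 7.44% of all. Within exons, the median log2 ratio was -0.08 in 5′ UTRs (-0.13 to 0.05), 0.00 in coding sequence (-0.05 to 0.09) and 0.16 in 3′ UTRs (0.04 to 0.27).

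The strongest exon sites were in both lists. Arhgef16, which encodes a guanine nucleotide exchange factor, had the highest ADR fold of all exon sites, 48.2 in ADR and 38.0 in PBS, in an exon of a noncoding transcript. The last exon of Rdh1, a retinol dehydrogenase, had 47.4 in ADR and 51.2 in PBS within the 3′ UTR. Mllt6, whose coding exon is printed above, had 46.9 in ADR and 44.0 in PBS. The steroid sulfate transporter gene Slc10a6 had 46.3 in ADR and 33.0 in PBS in its 3′ UTR, and Cyp2s1, a cytochrome P450 gene, had 44.7 in each list. The highest PBS folds were at the 5′ UTR of Cd302, a C-type lectin receptor gene (29.7 in ADR and 55.1 in PBS), at an exon of Slc7a1, which encodes a cationic amino acid transporter (22.1 in ADR and 54.3 in PBS), at the unclassified gene Gm37542 (15.4 in ADR and 51.4 in PBS) and at Mical2, an actin-oxidising enzyme gene (26.2 in ADR and 49.9 in PBS).

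Transcript ends had strong sites of the same height. The site 444 bp past a transcript end of Fgfr4, a fibroblast growth factor receptor gene, had 46.7 in ADR and 30.4 in PBS. Nthl1, a DNA glycosylase gene of base excision repair, had 46.2 in ADR and 43.4 in PBS, and Mmp23, a membrane metalloprotease gene, 46.2 in ADR and 58.7 in PBS. BC004004 had 46.1 in ADR and 23.0 in PBS, and Nav2, printed above, 45.9 in ADR and 28.2 in PBS. On the PBS side the unclassified gene A230052G05Rik (30.01 in ADR and 69.8 in PBS), Slc11a1, which encodes a divalent metal transporter of phagocytes (29.2 in ADR and 66.7 in PBS), the pseudogene Gm15981 (31.8 in ADR and 60.2 in PBS) and Pabpn1, the nuclear poly(A)-binding protein gene (43.2 in ADR and 59.7 in PBS), completed the 5 highest with Mmp23.

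Sites in the ADR list only reached higher folds than sites in the PBS list only. Among exon sites with a fold of 10 or more, 81 of 534 in the ADR list (15.2%) and 22 of 411 in the PBS list (5.35%) were without a counterpart, and among transcript end sites 127 of 609 in the ADR list (20.9%) and 31 of 439 in the PBS list (7.06%). The matching shares over all peaks with a fold of 10 or more were not computed, so this imbalance cannot be read as particular to exon or transcript end sites. Folds of the 2 lists rest on separate pooled libraries whose depths are not in the files, so the same fold need not mean the same read count in each. The strongest ADR-only exon sites were at Gm7489 (31.7), at the 3′ UTR of Tmem167, a Golgi membrane protein gene (26.4), at the 3′ UTR of Rer1, a retrieval receptor gene of the endoplasmic reticulum (22.7), at the antisense gene Gm16897 (22.2) and at Galc, the galactosylceramidase gene (21.97). The strongest PBS-only exon sites were at the unclassified gene Gm38140 (17.6), the antisense gene Gm31243 (15.8), the 5′ UTR of Slc38a1, a glutamine transporter gene (15.6), A530041M06Rik (15.04) and the 3′ UTR of Esyt2, which encodes a tether of the endoplasmic reticulum to the plasma membrane (14.8). At transcript ends the strongest ADR-only sites were at Igkv6-17 (34.99), Igkv8-18 (30.7), Slc44a2, a choline transporter-like gene (30.3), Gm12198 (29.3) and Igkv8-24 (27.6). The strongest PBS-only ones were at Manba, the lysosomal beta-mannosidase gene (21.0 and 14.3), Becn1, the autophagy gene (15.04), Itga2b, a platelet integrin gene (14.3), and Gm26626 (14.3).

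Among sites in both lists with a fold of 10 or more in either, the largest shift towards ADR was at a transcript end of Lrch1, with a fold of 26.8 in ADR and 2.77 in PBS (log2 ratio 3.27). A site 797 bp past a transcript end of Dnmt3a, the de novo DNA methyltransferase gene, had 32.5 in ADR and 4.46 in PBS. C230071H17Rik (31.4 in ADR and 4.72 in PBS), Steap3, an endosomal ferrireductase gene (26.1 in ADR and 4.02 in PBS), and Nmrk1, a nicotinamide riboside kinase gene (22.6 in ADR and 3.64 in PBS), followed. In exons the largest shifts towards ADR were at 6530402F18Rik (26.5 in ADR and 3.69 in PBS), in coding exon 7 of Taf4, a TFIID subunit gene (21.4 in ADR and 3.17 in PBS), in the 3′ UTR of Il6ra, the interleukin 6 receptor alpha gene (32.5 in ADR and 5.50 in PBS), in the 3′ UTR of Mical3 (25.96 in ADR and 4.87 in PBS) and in Gm15990 (28.9 in ADR and 5.57 in PBS). The summits of the overlapping peaks were more than 200 bp apart at Mical3 and at most 112 bp apart at the other exon sites of this group.

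The largest shifts towards PBS in exons were in the 3′ UTR of Rdh8, a retinol dehydrogenase gene (3.63 in ADR and 31.0 in PBS, log2 ratio -3.09), and in the 3′ UTR of H6pd, which encodes hexose-6-phosphate dehydrogenase (4.02 in ADR and 25.9 in PBS). Exon sites of Smarcal1 (4.46 in ADR and 33.9 in PBS), Gm44284 (5.83 in ADR and 40.3 in PBS) and Hnrnpa2b1 (2.67 in ADR and 16.4 in PBS) also met the rule, but there the summits of the lists were more than 200 bp apart (493 bp at Smarcal1 and 962 bp at Hnrnpa2b1), so the folds belong to different points of overlapping peaks. At transcript ends the largest shifts towards PBS were at Mir7212 (4.16 in ADR and 25.6 in PBS), Creb1, the cyclic AMP response factor gene (6.90 in ADR and 38.8 in PBS), Gm25406 (2.68 in ADR and 13.2 in PBS), Zbtb42 (6.37 in ADR and 31.0 in PBS) and Susd1 (4.78 in ADR and 22.8 in PBS). The Creb1, Susd1 and H6pd sites each held an AP-1 match.

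Short matches to motifs of known factors were counted within 100 bp of each summit, on both strands, with windows centred 1000 bp on either side of the summit as the local background. A WT1 match was in 30.7% of ADR exon sites and 28.9% of PBS exon sites, against 6.32% and 6.58% of their flanks, and in 28.4% of ADR transcript end sites and 27.6% of PBS transcript end sites, against 5.45% and 5.93% of their flanks. TEAD matches (RCATTCCW, where W is A or T) were also above the flanks, at 8.03% of ADR exon sites and 6.55% of PBS exon sites (flanks 3.62% and 3.46%) and 9.45% of ADR transcript end sites and 8.53% of PBS transcript end sites (flanks 2.98% and 3.22%). The forkhead match, the family's own, was below the flanks at exon sites, in 18.98% of ADR sites and 14.7% of PBS sites (flanks 26.3% and 25.1%), and at transcript ends it was in 24.8% of ADR sites and 18.9% of PBS sites (flanks 27.1% and 24.7%). Summit and flank windows were not matched for GC content, whose median was 56.7% at ADR exon sites and 58.2% at PBS exon sites. How far base composition set these WT1 and forkhead differences was not tested. ADR exon sites held forkhead matches less often than the pooled promoter, intron and intergenic ADR peaks by 6.44 points (-8.31 to -4.56). ADR transcript end sites held them as often as that pool within counting error (-0.61 points, -2.66 to 1.43). The pool mixed unlike classes, with a match in 11.1% of promoter, 32.0% of intron and 32.9% of intergenic ADR peaks. Exon and transcript end sites both lay above the promoter share and below the intron and intergenic shares.

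The WT1 matches were also the ones nearest to the summits. Of the sites with a WT1 match, 58.1% in the ADR list and 55.4% in the PBS list had it within 25 bp of the summit, with a median distance of 21 bp in ADR and 22 bp in PBS. For forkhead matches these shares were 27.9% in the ADR list and 23.3% in the PBS list. The KLF motif (GGGYGKGG) overlaps the WT1 motif in part: 243 ADR sites and 239 PBS sites held both, and in 152 and 146 of them a WT1 and a KLF match shared bases.

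The sites found in 1 list only differed most in forkhead and AP-1 matches. Over exon and transcript end sites together, a forkhead match was in 378 of 1270 ADR-only sites (29.8%) and 221 of 1367 PBS-only sites (16.2%), a difference of 13.6 points (10.4 to 16.8). An AP-1 match was in 17 ADR-only sites (1.34%) and 205 PBS-only sites (15%), a difference of -13.7 points (-15.7 to -11.7). Neither difference was particular to these sites. The forkhead difference was 16.6 points in introns, 17.2 points at intergenic sites and 7.37 points in promoters. The AP-1 difference was -16.5, -18.1 and -7.22 points in the same order. At the exon and transcript end sites, WT1 matches differed by less than the counting error, with 22.05% of ADR-only sites and 19.4% of PBS-only sites (2.66 points, -0.44 to 5.76). Among the 20000 peaks of smallest q-value in each list, however, the WT1 difference was -9.44 points (-14.5 to -4.33), while the forkhead difference was 14.9 points and the AP-1 difference -18.1 points.

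Exon sites and transcript end sites each showed the forkhead and AP-1 contrast. Among exon sites the forkhead share was 29.6% of ADR-only sites and 14.5% of PBS-only sites (15.1 points, 10.5 to 19.7) and the AP-1 share 1.62% and 12.1% (-10.5 points, -13.1 to -7.83). Among transcript end sites the forkhead share was 29.9% of ADR-only sites and 17.9% of PBS-only sites (12.02 points, 7.58 to 16.5) and the AP-1 share 1.12% and 18.01% (-16.9 points, -19.9 to -13.9). The forkhead shares of ADR-only sites were close to those of their own flanks, 27.4% for exon sites and 31.9% for transcript end sites, whereas the PBS-only sites lay below theirs, 23.9% and 25.9%. ADR-only sites were also poorer in GC, with a median of 52.2% in exons and 50.7% at transcript ends, against 56.2% and 54.2% of PBS-only sites. With shares averaged over bins of GC content under common weights, the forkhead difference over both classes was 7.58 points (4.52 to 10.6) and the AP-1 difference -14.3 points (-16.4 to -12.3).

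WT1 matches instead separated sites in both lists from sites in 1 list. At exons a WT1 match was in 22.1% of ADR-only sites and 34.6% of ADR sites with a PBS peak, and in 19.9% of PBS-only sites and 34.0% of PBS sites with an ADR peak. At transcript ends the ADR-only share was 10.6 points below that of ADR sites with a PBS peak (-14.7 to -6.48), and the PBS-only share 14.1 points below that of PBS sites with an ADR peak (-18.1 to -10.01). Other classes gave the same split. There the ADR-only minus shared ADR difference was -14.2 points in introns, -12.8 points at intergenic sites and -13.7 points in promoters.

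**Figure D2:**
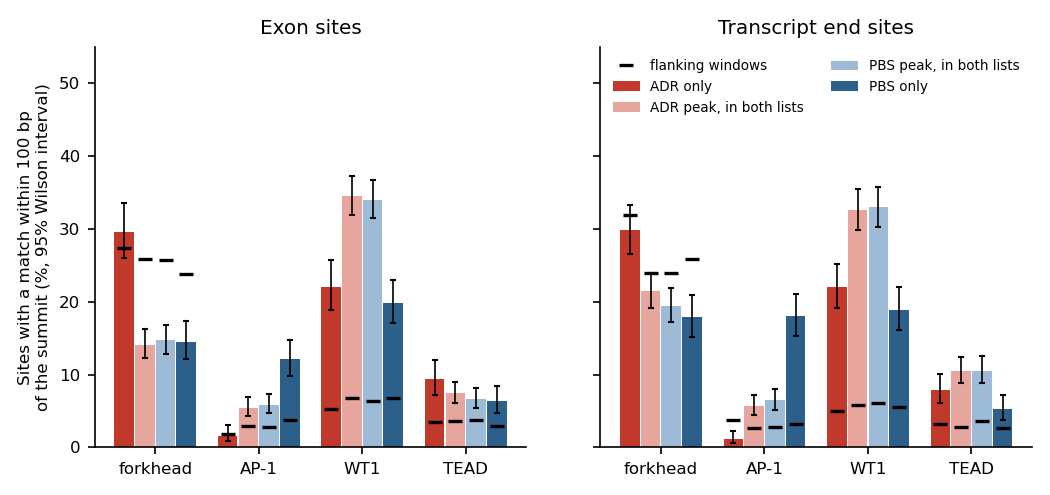
Share of exon sites (left) and transcript end sites (right) with a motif match within 100 bp of the summit (vertical axis, percent, 95% Wilson intervals), for ADR-only sites, ADR and PBS peaks of sites in both lists, and PBS-only sites; black ticks give the windows 1000 bp away. AP-1 bars are at 1.62% and 1.12% for ADR-only sites and 12.1% and 18.01% for PBS-only sites, and WT1 bars are far above their ticks in every group.

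The contrast was found in coding sequence and in 3′ UTRs. In 5′ UTRs, with only 30 ADR-only and 72 PBS-only sites, 4 ADR-only and 8 PBS-only sites held a forkhead match, 0 ADR-only and 1 PBS-only site an AP-1 match, so no difference could be resolved. Coding sites held a forkhead match at 18.2% of those in ADR only, against 7.05% of those in PBS only (11.2 points, 4.65 to 17.7), and AP-1 matches at 0.55% and 5.73%. In 3′ UTRs the forkhead share was 38.6% among ADR-only sites, above their flanks of 28.2%, and 18.2% among PBS-only sites, below their flanks of 21.4% (difference 20.4 points, 9.57 to 31.2), and AP-1 matches in 1 of 140 ADR-only sites and 21 of 110 PBS-only sites (-18.4 points, -25.9 to -10.9). The intervals of the coding and 3′ UTR forkhead differences overlap. GC content fell along the same order, with a median of 67.2% at ADR 5′ UTR sites, 62.2% at ADR coding sites and 52.7% at ADR 3′ UTR sites, and its part in the contrast was not tested beyond the weighting above.

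A group of transcript end sites fell on the kappa V genes, the gene segments from which B lymphocytes assemble immunoglobulin light chains. V segments carry a recombination signal at their 3′ end, made of a heptamer, a spacer and a nonamer, where the recombinase cuts. In the kappa V region (chr6:67555497-70704177) there were 18 ADR peaks, 17 of them at the end of a V gene, and 5 PBS peaks, all of them at V gene ends and all with an ADR counterpart. The ADR folds at these ends ran from 5.14 to 44.7 with a median of 22.9, and the PBS folds from 6.27 to 21.2 with a median of 7.04, against 7.07 and 6.12 for all other transcript end sites. Of the 17 ADR sites, 16 lay within 0.572 Mb (chr6:69814441-70386765).

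Among the genes with a peak in both lists, Igkv6-32 had a fold of 44.7 in ADR and 14.9 in PBS, Igkv8-26 had 37.7 in ADR and 7.04 in PBS, Igkv8-30 had 27.3 in ADR and 21.2 in PBS, Igkv8-28 had 14.4 in ADR and 7.04 in PBS, and the pseudogene Igkv1-108 had 5.14 in ADR and 6.27 in PBS. Beside the ADR-only sites named above, ADR-only folds were 25.9 at Igkv8-19, 25.2 at the pseudogene Igkv8-31, 22.9 at Igkv12-41, 22.8 at Igkv6-25, 17.7 at Igkv6-20, 15.4 at Igkv12-44, 14.99 at Gm43218, 14.9 at Igkv8-16 and 8.32 at Igkv12-38. ADR was the higher list at every kappa V gene with a peak except Igkv1-108. The sites were unevenly spread over the families: 8 of the 12 Igkv8 records, 4 of the 9 Igkv6 records and 3 of the 12 Igkv12 records had an ADR peak, against 2 of the 143 other kappa V records.

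The summits lay at the very end of the V segment. ADR summits lay from 42 bp before to 67 bp past the end of the V gene record, with a median of 4 bp past it. The letters CACAGTG were in 15 of the 17 ADR kappa V sites (88.2%, 65.7% to 96.7%), against 6.06% of the other ADR transcript end sites and 5.79% of all ADR peaks. The letters ACACAAACC were in 9 of the 17, against 0.282% of all ADR peaks. Both strings were chosen after the printed sequences had been seen. Most kappa V records with the heptamer had no peak: 109 of the 176 records carried CACAGTG right after their end, 15 of them with an ADR peak and 94 without. Of the 13 records that carried ACACAAACC after the spacer, 9 had an ADR peak. Forkhead matches were in 3 of the 17 ADR kappa V sites and WT1 matches in 1.

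**Figure D3:**
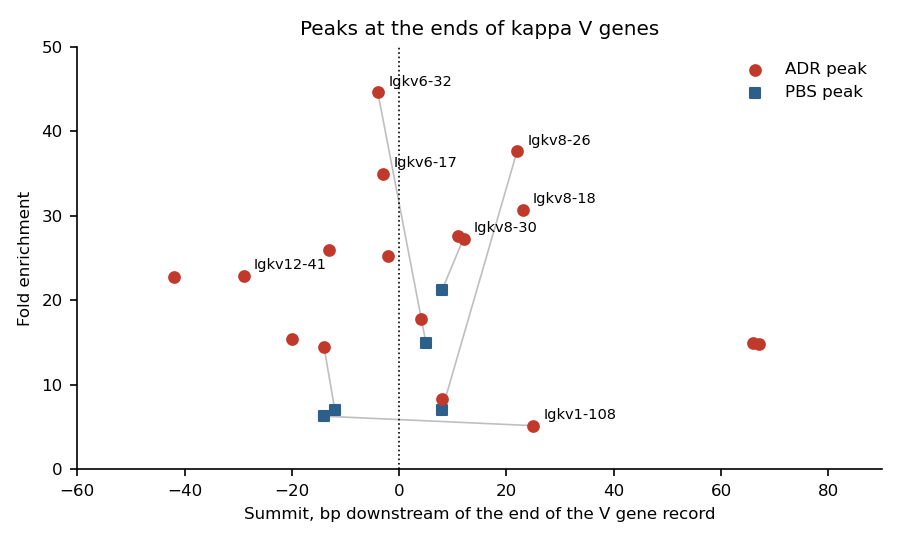
Fold enrichment (vertical axis, linear) against the distance of the summit from the end of the V gene record (horizontal axis, bp, positive downstream) for the 17 ADR peaks (red circles) and 5 PBS peaks (blue squares) at kappa V gene ends; grey lines join the ADR and PBS peaks of a gene. All summits lie between 42 bp before and 67 bp past the end, and the PBS folds do not exceed 21.2.

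Kappa V genes of a family resemble one another in sequence, to a degree that was not measured here. The reads of a V gene may have been placed on another, so how many V genes carried the signal is uncertain. The heavy chain V region held 11 ADR peaks of at most 5.62-fold and 32 PBS peaks of at most 6.83-fold, and the lambda V region none. Of the B lymphocyte genes looked up after these sites had been seen, Cd22, Ms4a1 and Rag1 had no peak within 10 kb of their start in either list, while the highest fold there was 10.9 in ADR and 10.9 in PBS at Cd79a, 10.2 in ADR and 4.72 in PBS at Cd79b, and 5.14 in ADR and 17.6 in PBS at Ebf1. Whether cells other than podocytes contributed to the kappa V sites was not tested.

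Exon and transcript end sites fell on 26 of 48 genes of a set characteristic of podocytes, with 31 ADR sites and 28 PBS sites. Of these, 14 were ADR-only and 8 PBS-only, which is 45.2% of the ADR sites and 28.6% of the PBS sites, against 32.3% of all ADR peaks and 33.1% of all PBS peaks. The shares of this and the following gene lists rest on few sites. No intervals were computed for them, so whether they differ from all peaks beyond counting error was not tested. At the 17 ADR sites with a PBS peak the median log2 ratio was 0.51, against 0.04 for all ADR peaks, with 6 sites at least 2-fold higher in ADR and 0 at least 2-fold higher in PBS. Sema3g, which encodes a secreted semaphorin, had a 3′ UTR site of 32.7-fold in ADR and 11.4-fold in PBS, an end site of 5.83 in ADR and 6.78 in PBS, and a PBS-only 3′ UTR site of 3.02. Arhgap24, a Rac GTPase-activating protein gene, had 31.8 in ADR and 23.3 in PBS in its 5′ UTR, and an ADR site past the end of Adm, the gene of the vasodilator peptide adrenomedullin, had 33.3 against 16.5 in PBS.

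Further transcript end sites of this set were at Rasl11a, a Ras-like GTPase gene (22.8 in ADR and 9.11 in PBS), at the peptidase gene Dpp4 (20.8 in ADR and 14.3 in PBS), at Sdc4, a heparan sulfate proteoglycan gene (11.3 in ADR and 6.01 in PBS), and at Hoxc8, a homeobox gene (10.6 in ADR and 4.46 in PBS). Sites in the ADR list only were the 3′ UTR of Npnt, the gene of the matrix protein nephronectin (16.2), the end of Ildr2 (15.5) and a coding exon of Iqgap2 (9.38). Ildr2 also had the PBS-only 3′ UTR site printed above, at 7.82. Besides the Sema3g end, the shared sites with the higher fold in PBS were an exon of Synpo, the synaptopodin gene, whose product binds actin in foot processes (27.2 in ADR and 36.7 in PBS), the 5′ UTR of Tmsb4x, the thymosin beta 4 gene (10.5 in ADR and 11.7 in PBS), the 3′ UTR of Tmem150c (5.14 in ADR and 8.07 in PBS), and the ends of Gadd45a (6.45 in ADR and 8.07 in PBS) and Nupr1 (5.42 in ADR and 6.27 in PBS).

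In 48 genes of inherited glomerular disease there were 25 ADR sites and 16 PBS sites, of which 15 were ADR-only (60%) and 7 PBS-only (43.8%). Over all peaks the shares were 32.3% in the ADR list and 33.1% in the PBS list, and the distance from them was not tested. Among genes of the basement membrane and slit diaphragm, an exon of Col4a4, a collagen IV chain gene, had an ADR-only site of 20.6 and the end of Lamc1, the laminin gamma 1 gene, an ADR-only site of 15.5. Magi2, a scaffold gene of the slit diaphragm, had 16.4 in ADR and 10.7 in PBS. Crb2, a polarity gene, had a coding exon site of 8.70 in ADR and 5.69 in PBS and an ADR-only end site of 13.1. Among regulators of actin, coding exon 3 of Actn4, the alpha-actinin 4 gene, had an ADR-only site of 11.6, Arhgdia, a GDP dissociation inhibitor gene, had 10.5 in ADR and 3.77 in PBS, and the formin gene Inf2 had 7.20 in ADR and 3.94 in PBS. Itga3, an integrin gene, had 4 ADR-only sites, all between 3.55 and 5.42. A transcript end of Smarcal1, an annealing helicase gene, had 14.8 in ADR and 33.9 in PBS, with summits 29 bp apart. This is the same PBS peak that was paired above with the Smarcal1 exon site of 4.46 in ADR. The coding exon site of the collagen gene Col4a5 had 8.85 in ADR and 9.74 in PBS with summits 451 bp apart. The PBS-only sites included the 5′ UTR of Magi2 (7.30) and the ends of Kirrel2 (5.06), Podxl (4.92) and Actn4 (4.72). Separate transcript end sites of Podxl (3.64) and Actn4 (4.87) were in the ADR list only.

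In a list of 42 transcription factor genes of podocytes there were 24 ADR sites and 22 PBS sites, of which 10 were ADR-only (41.7%, against 32.3% of all ADR peaks) and 7 PBS-only (31.8%, against 33.1% of all PBS peaks). The median log2 ratio of the 14 shared ADR sites was 0.40. Foxd1, a forkhead gene of the renal stroma and podocyte lineage, had a coding site of 31.1 in ADR and 22.5 in PBS, a 3′ UTR site of 15.1 in ADR and 6.12 in PBS, and an ADR-only end site of 9.79. The 5′ UTR of Tead4, a Hippo pathway factor gene, had 30.7 in ADR and 8.86 in PBS, and the 5′ UTR of Sox12 had 10.7 in ADR and 2.67 in PBS. Hoxd8 had 17.3 in ADR and 14.7 in PBS and Meis2 12.9 in ADR and 7.82 in PBS. Higher PBS folds were found at Sox9 (6.48 in ADR and 15.3 in PBS), in coding sequence of Sox12 (3.73 in ADR and 7.22 in PBS) and at the 3′ UTR of Foxc1 (4.99 in ADR and 9.36 in PBS). For FOXC2's own gene and other podocyte regulators, a coding site of Foxc2 (6.39) and the ends of Lmx1b (5.10) and Tcf21 (4.02) were in the ADR list only.

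**Figure D4:**
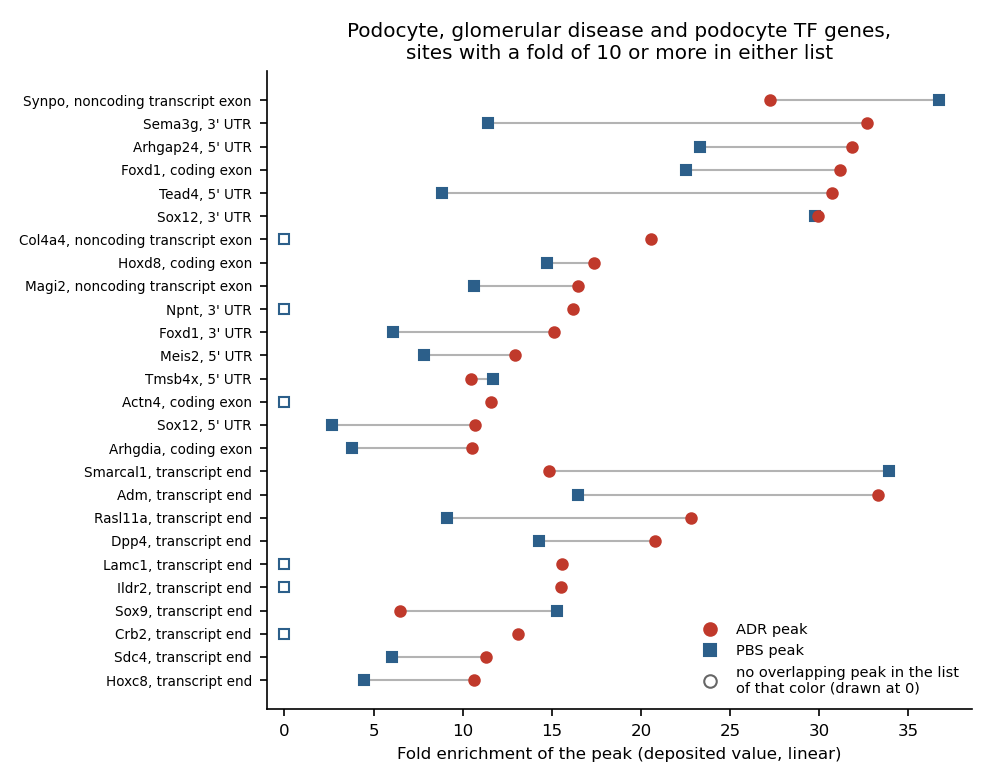
Fold enrichment (horizontal axis, linear) in the ADR list (red circles) and the PBS list (blue squares) at the 26 exon and transcript end sites of podocyte, glomerular disease and podocyte transcription factor genes with a fold of 10 or more in either list and, where in both, summits within 200 bp; an open symbol at 0 marks a list with no overlapping peak. The points reach 33.3 in ADR, at Adm, and 36.7 in PBS, at Synpo; as ADR-only sites reached a fold of 10 more often than PBS-only sites, the plotted sites do not give the balance of the lists, which hold PBS-only sites of lower fold.

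Genes of the immediate early response, whose transcription rises within minutes of a stimulus and which include the AP-1 subunits, carried more PBS sites than ADR sites. On 22 of the 40 genes listed there were 17 ADR sites and 33 PBS sites, with 0 ADR-only and 16 PBS-only sites (48.5% of the PBS sites, against 33.1% of all PBS peaks), and at the 17 shared ADR sites the median log2 ratio was -0.27. Ier2 had the strongest site, in its 3′ UTR, with 32.6 in ADR and 42.3 in PBS. The end of Egr1, a zinc finger factor gene, had 9.08 in ADR and 16.1 in PBS, and the end of Zfp36, which encodes an mRNA-destabilising protein, had 6.09 in ADR and 11.6 in PBS. The AP-1 gene Jun had 6.05 in ADR and 7.27 in PBS in its 5′ UTR, and Fosb was level (12.9 in ADR and 12.4 in PBS).

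PBS-only sites lay at 3 exon positions of the AP-1 gene Fosl2 (3.48, 5.38 and 6.53), in coding sequence of Cebpb (7.04), Gadd45g (5.53) and Gadd45b (4.202), in the 3′ UTR of Sik1 (6.53) and Btg1 (4.202), and at the ends of Btg2 (5.75), Klf6 (5.64), Klf2 (4.55), Socs3 (3.94) and Klf4 (3.69), and none of the 16 exceeded 7.04. Among the sites with summits within 200 bp in both lists, the largest shift towards ADR was at the end of Dusp1, a MAP kinase phosphatase gene, with 19.4 in ADR and 9.88 in PBS. A coding site of the AP-1 gene Junb had 16.1 in ADR and 3.602 in PBS at summits 1071 bp apart.

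**Figure D5:**
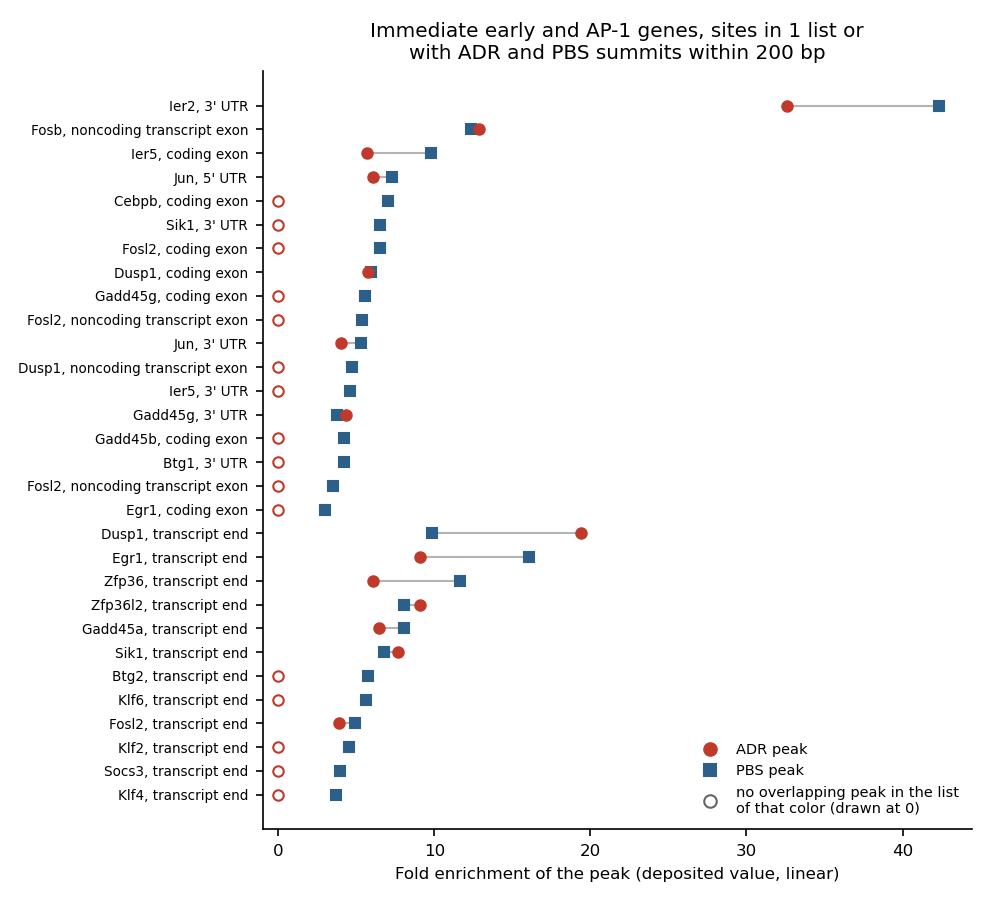
Fold enrichment (horizontal axis, linear) in the ADR list (red circles) and the PBS list (blue squares) at the 30 exon and transcript end sites of immediate early genes that were in 1 list or had summits within 200 bp in both; an open symbol at 0 marks a list with no overlapping peak. No site is ADR-only, 16 are PBS-only, and of the 14 in both lists 9 are higher in PBS.

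Genes that mark other cells of the kidney carried few of these sites. The 8 endothelial markers had 2 ADR sites and 4 PBS sites, and the 6 mesangial, 5 distal tubule and 5 immune markers had 0 in both lists. The 6 proximal tubule markers had 3 ADR sites and 1 PBS site, all at Slc34a1, the gene of a sodium phosphate cotransporter, whose transcript end had 28.4 in ADR and 5.75 in PBS. Binding at a gene is not its expression, and what these sites say of other cells in the sort was not tested.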

How the data were processed

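FOXC2 ChIP-seq was performed on sorted podocytes, 3 samples per condition, which the authors pooled before calling peaks. Each deposited narrowPeak list gives, in its deposited columns, a fold enrichment (a ratio) at each summit and a -log10 q-value. Single-end reads were aligned to GRCm38 and narrow peaks called over input with nf-core/chipseq by the authors; versions, thresholds and library depths are not given in the sources used here; the lowest deposited -log10 q-value was 1.35 in the ADR list and 1.34 in the PBS list. Every peak lay inside GRCm38. Summits were classed with GENCODE M21 in the order promoter, transcript end, exon, intron and intergenic. Peaks were paired by an overlap of at least 1 bp, taking the largest overlap. Motifs were exact matches within 100 bp of the summit. Genes named are, per class, the 5 strongest of each list, the 5 strongest in 1 list only, the 5 largest and 5 smallest log2 ratios where either fold was at least 10, examples of genes with most sites, and members of the podocyte lists; members of other lists, the B lymphocyte genes, Hey1 for CTCF and the kappa V group were picked with their values in view. The members and lists were chosen with earlier results of these data known. Code was tested on simulated data. Alternatives changed the class order, transcript set, windows, thresholds, pairing, motif distance, GC weighting and centring of the folds. Python 3.11.15, NumPy 2.4.6, pandas 2.3.3, SciPy 1.17.1 and matplotlib 3.10.9 were used. Sequence was read from the GRCm38 RefSeq assembly. A few genes and a sequence are not reported here.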

Additional observations from a re-analysis of the deposited data

How the results depend on the processing

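No paired analysis was possible because the replicates were pooled into 1 list per condition, and for the same reason no replicate could be left out. Of the recomputed values, 86 moved by less than their counting error (counts by less than 1.5 times) and 46 by more. The WT1 difference and the exon median, neither separated from 0 as reported, changed sign (the exon median to -0.0098 once centred on all peaks and -0.0015 with basic transcripts). A promoter of 1000 bp on each side of the start gave 1044 ADR and 1079 PBS exon sites, 37.9% and 39.9% in 1 list only, and an exon median of 0.092. Basic transcripts alone gave 1143 ADR and 1131 PBS transcript end sites, exon shares of 28.0% and 33.1%, a transcript end median of 0.022 and an AP-1 difference of -11.2 points. A window to 500 bp gave 1068 ADR and 1021 PBS transcript end sites. Peak midpoints gave 33.1% of PBS exon sites in 1 list only. A -log10 q-value of at least 5 gave 34.6% of ADR exon sites, 42.1% of ADR and 35.7% of PBS transcript end sites, and an AP-1 difference of -15.8. A fold of at least 5 gave 1261 PBS exon sites, 39.0% of ADR exon sites, 44.4% of ADR and 33.7% of PBS transcript end sites, and a WT1 difference of -0.82. The 20000 peaks of smallest q-value per list gave 785 ADR and 777 PBS exon sites, 865 ADR and 782 PBS transcript end sites, 36.7% of ADR exon and 43.2% of ADR transcript end sites, medians of 0.12 and 0.26, an AP-1 difference of -18.1 and a WT1 difference of -9.44. An overlap of 50% of both peaks gave 42.8% and 47.5% of exon sites, 49.2% and 48.4% of transcript end sites, a forkhead difference of 10.4 and an AP-1 difference of -10.4. Summits within 200 bp gave 36.6% and 41.9% of exon sites and 42.0% and 41.2% of transcript end sites. PBS members with their ADR peak gave an exon median of 0.085, equal GC a forkhead difference of 7.58, and motifs within 50 bp an AP-1 difference of -8.36. The cause of each shift was not tested.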

Other observations

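Matches to the CTCF motif were few but more frequent at transcript ends than over the other classes together. CTCF is the zinc finger protein that anchors chromatin loops. A match was in 39 ADR transcript end sites (2.17%) and 66 PBS transcript end sites (3.73%), against 0.278% and 0.169% of their flanks, which is 1.42 points (0.74 to 2.10) above the other classes in the ADR list and 2.32 points (1.43 to 3.21) above them in the PBS list. Of these sites 9 were ADR-only and 32 PBS-only, so that 1.26% of ADR-only and 4.76% of PBS-only transcript end sites held a match (-3.50 points, -5.31 to -1.69). The same difference was -1.62 points in promoters, -1.52 points in introns and -2.51 points at intergenic sites, so its direction was not particular to transcript ends. At exon sites the shares with a CTCF match were 1.18% in ADR and 1.39% in PBS, and at the 3′ UTR sites among them 3.03% in ADR (10 of 330) and 2.98% in PBS (9 of 302). A CTCF match lay at the end of Hey1, a Notch target gene, with a fold of 3.63 in ADR and 3.02 in PBS.

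Most genes held a single site. Neat1, the scaffold RNA of nuclear paraspeckles, had the most exon sites of any gene, 6 in the ADR list and 10 in the PBS list, of which the strongest had 11.8 in ADR and 11.05 in PBS. Syne1, which encodes a giant nuclear envelope protein, had 4 ADR sites and 3 PBS sites. Timp3, a metalloprotease inhibitor gene, had 4 ADR sites and 1 PBS site, with 3 ADR-only sites in its 3′ UTR between 4.12 and 4.33. Mroh2a had 0 ADR sites and 5 PBS-only sites, all in coding exons and between 2.28 and 4.90. At transcript ends Mtcl1 had 4 sites in each list, the strongest with 36.9 in ADR and 17.4 in PBS, Med24, a Mediator subunit gene, had 4 ADR sites and 2 PBS sites, and Myh9, the nonmuscle myosin heavy chain gene, had 4 ADR sites and 3 PBS sites.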
